A study of Mus musculus with 8 samples.

Results

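The glycolysis and hypoxia response genes are 40 genes of 24421 in a table of expression values, taken by name: the enzymes of glycolysis with the transporters and kinases around them, and genes induced when oxygen is low. Of these, 39 reached the level needed for testing and Car9, a carbonic anhydrase, did not. In undifferentiated cells, 26 of the 39 were higher in Hira-null than in WT and 6 were lower, where 20.8% and 19.4% of all tested genes were. After 15 days of differentiation, 26 were lower in the cultures labelled Hira-null (16 without the first WT library) and 0 were higher, against 18.8% and 18.6% of tested genes. From day 0 to day 15, 32 members fell in WT (33.4% of tested genes did) and 34 in the cells labelled Hira-null (36.4%), and the change was more negative in the latter for 30 (17.7%).

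Glycolysis splits glucose to pyruvate in the cytosol. Glucose enters through transporters of the SLC2A family, hexokinases trap it, phosphofructokinase commits it to the pathway, and lactate dehydrogenase and the SLC16A carriers deal with and export the end product. When oxygen is low, the prolyl hydroxylases of the EGLN family no longer mark HIF1A for breakdown, and HIF1A with its partner ARNT binds short motifs near its targets, among them most glycolytic genes. Pluripotent stem cells are known for high glycolytic activity, which drops as many lineages form.

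RNA was sequenced from WT W9.5 mouse embryonic stem cells and from Hira-null cells of 1 clone, which lack the chaperone that places the histone variant H3.3 into chromatin outside replication. Both lines carried HA-tagged H3.3. With 1 line per genotype, an effect of losing HIRA cannot be told apart from other differences between these lines. Each genotype was taken undifferentiated at day 0 and at day 15 of differentiation, which gave 4 groups of 2 libraries. Differentiation used another medium, without LIF, with cells grown as hanging drops, then in suspension, then plated on gelatin from day 4. The days thus also differ in medium and culture format. The day 15 samples are labelled differentiated cardiomyocytes, but they are whole cultures of mixed cells. In such bulk samples fewer cells of a type and less RNA per cell cannot be told apart. By the study's methods, the libraries of a group came from separate biological samples.

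Levels are given as FPKM, a fragment count divided by gene length and library size, a scale on which levels of different genes can be set side by side. At least 6897009 to 11088835 fragments per library stood behind these values, recovered as the smallest whole numbers that fit them. Hira mRNA was 27.3 and 28.5 FPKM in WT and 12.4 and 11.4 in Hira-null at day 0, a log2 fold change of -1.17 with a standard error (SE) of 0.10 and an adjusted p of 8.48e-05. At day 15 it was 15.8 and 15.5 in WT and 16.7 and 19.8 in the libraries labelled Hira-null. The log2 fold change was 0.20 (SE 0.11, adjusted p = 0.167), so the mRNA was not lower in the libraries with that label. The Hira-null libraries of day 0 also kept some Hira mRNA. A level over the whole gene does not tell a working transcript from a mutant one, so it cannot settle the genotype. Exons of Hira overlap Gm15797 on the same strand, so reads of these genes may be mixed. In day 15 values written with "against", WT comes first and the libraries labelled Hira-null second. Cardiomyocyte markers summed to 262 to 266 FPKM in WT at day 15 and to 179 in both libraries labelled Hira-null, against 24.9 to 34.1 at day 0. Of these 14 markers, 5 were lower and 2 higher in the libraries labelled Hira-null at day 15. Of all tested genes, 18.8% were called lower and 18.6% higher.

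**Figure D1:**
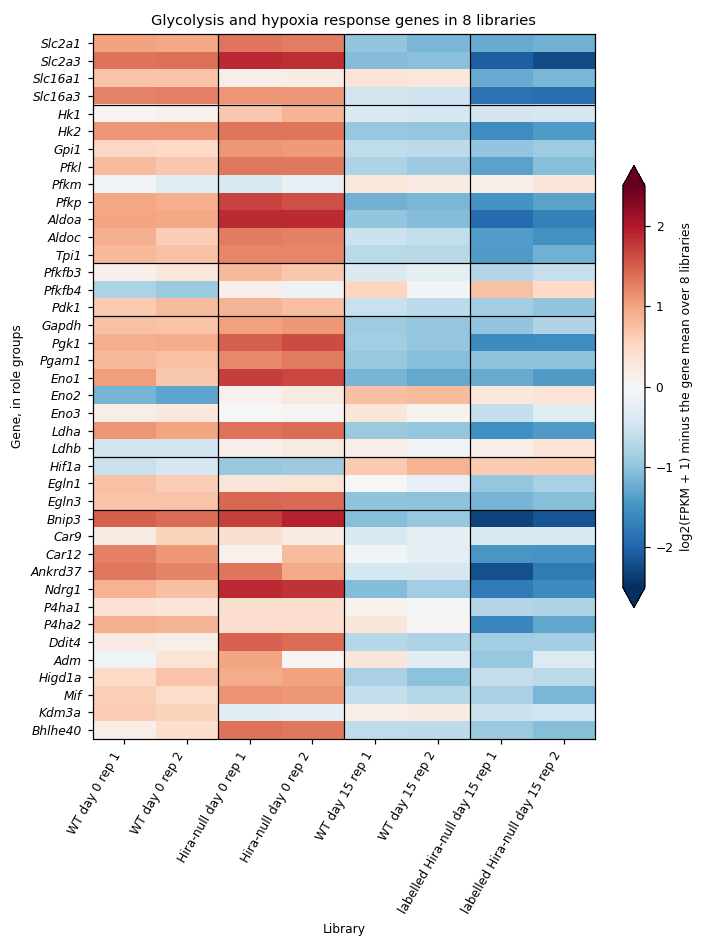
Level of each of the 40 members in each of the 8 libraries, coloured as log2(FPKM + 1) minus the mean of that gene over the 8 libraries (red above it, blue below), with genes grouped by role and libraries by genotype and day. Most genes are red in the day 0 columns and blue in the day 15 columns, as in Aldoa, at 2608 FPKM in the first Hira-null day 0 library and 187 in the first labelled Hira-null at day 15.

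HIF1A and ARNT are known to bind the core motifs ACGTG and GCGTG. These letters were searched on both strands in the 250 bases before each start site in RefSeq (GRCm38.p6), where 37 members had an entry. CACGTG reads as ACGTG on each strand and counts as 2 matches, and a gene with several starts was given its highest count. At least 1 match was present in 32 of the 37 members (86.5%), against 60.9% of 10665 tested genes and 41.5% of all 27025 genes in the table. ACGTG alone was present in 51.4% of members, 24.8% of tested genes and 18.5% of all genes. Base composition was not matched between these sets, and a match describes the letters and is not a binding site.

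The members with at least 4 matches are printed, with Gpi1, which has 0, beside them to show an upstream region of a member without the letters. Sequences run 5′ to 3′ towards the start site, in lower case, with the matches to either motif, on this strand or read from the other, in capitals. Bnip3 (chr7:138909507-138909756, minus strand) and Ldha (chr7:46845554-46845803, plus strand) hold 5 matches each. Ankrd37 (chr8:45999851-46000100, minus strand) and Slc16a1 (chr3:104638414-104638663, plus strand) hold 4 each. The Gpi1 region is chr7:34230337-34230586 on the minus strand.
Bnip3: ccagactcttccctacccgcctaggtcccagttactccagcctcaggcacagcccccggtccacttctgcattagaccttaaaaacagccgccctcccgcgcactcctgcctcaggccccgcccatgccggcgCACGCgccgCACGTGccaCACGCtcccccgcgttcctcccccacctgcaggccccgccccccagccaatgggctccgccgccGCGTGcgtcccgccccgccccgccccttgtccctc
Ldha: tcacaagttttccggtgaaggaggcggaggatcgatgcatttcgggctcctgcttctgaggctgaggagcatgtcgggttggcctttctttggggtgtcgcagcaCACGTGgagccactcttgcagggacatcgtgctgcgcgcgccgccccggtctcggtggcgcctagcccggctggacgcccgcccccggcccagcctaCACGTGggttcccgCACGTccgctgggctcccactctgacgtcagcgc
Ankrd37: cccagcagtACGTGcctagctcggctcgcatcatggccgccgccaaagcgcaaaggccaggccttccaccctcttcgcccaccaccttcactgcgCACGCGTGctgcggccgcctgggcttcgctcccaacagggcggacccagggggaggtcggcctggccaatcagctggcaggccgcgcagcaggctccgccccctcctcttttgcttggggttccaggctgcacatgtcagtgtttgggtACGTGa
Slc16a1: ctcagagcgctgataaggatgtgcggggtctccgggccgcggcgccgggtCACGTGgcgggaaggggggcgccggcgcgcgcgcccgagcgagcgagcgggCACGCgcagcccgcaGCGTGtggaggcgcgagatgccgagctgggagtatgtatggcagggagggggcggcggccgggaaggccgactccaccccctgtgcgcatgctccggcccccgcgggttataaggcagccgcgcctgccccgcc
Gpi1: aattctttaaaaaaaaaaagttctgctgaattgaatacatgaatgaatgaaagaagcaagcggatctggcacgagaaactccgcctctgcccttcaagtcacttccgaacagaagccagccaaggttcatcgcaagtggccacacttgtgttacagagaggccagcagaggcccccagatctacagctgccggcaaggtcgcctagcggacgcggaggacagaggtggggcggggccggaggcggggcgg

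In undifferentiated cells, the 26 members higher in Hira-null compare with 20.8% of all 14337 tested genes called higher, and the 6 lower members with 19.4% called lower. Without the first WT or the first Hira-null day 0 library 3 were lower, against 16.3% and 12.8% of tested genes. Calls are at an adjusted p of 0.05 or less in limma, fitted on log2(FPKM + 1) over all tested genes. The median log2 fold change was 0.46 over the 39 members and 0.01 over all tested genes. Both Hira-null libraries lay above both WT libraries for 27 members and below for 8, against 35.4% and 33.2% of tested genes. On the log2(FPKM + 1) scale, which understates changes at low FPKM, 2-fold or more passed the test in 4 members, all higher (Eno2, Ndrg1, Ddit4 and Bhlhe40). By that size, 4.63% of tested genes were called higher and 2.59% lower. The higher members sat mainly on the glycolytic side. Of 24 transporters, enzymes and kinases, 19 were higher and 1 was lower, whereas of 15 tested genes of the HIF pathway and the other hypoxia response, 7 were higher and 5 lower.

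At day 15, the 26 members lower in the cultures labelled Hira-null compare with 18.8% of tested genes called lower. Without the first WT day 15 library 16 were lower, against 8.93% of tested genes. None passed the test upwards in limma, where 18.6% of all genes did, and at an unadjusted p below 0.05 there was 1, Higd1a. The median log2 fold change was -0.46 over the members and 0.01 over all tested genes. Both libraries labelled Hira-null lay below both WT libraries for 32 members, against 34.3% of tested genes, and above them for 1, Higd1a. On the log2(FPKM + 1) scale, a fall of 2-fold or more passed the test in 7 members (Slc2a3, Slc16a1, Slc16a3, Bnip3, Car12, Ankrd37 and P4ha2). By that size 4.08% of tested genes were called lower. A rise of that size passed in 0 members, against 4.78% of tested genes. Lower members came from both sides of the list, 16 of the 24 transporters, enzymes and kinases and 10 of the 15 others.

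**Figure D2:**
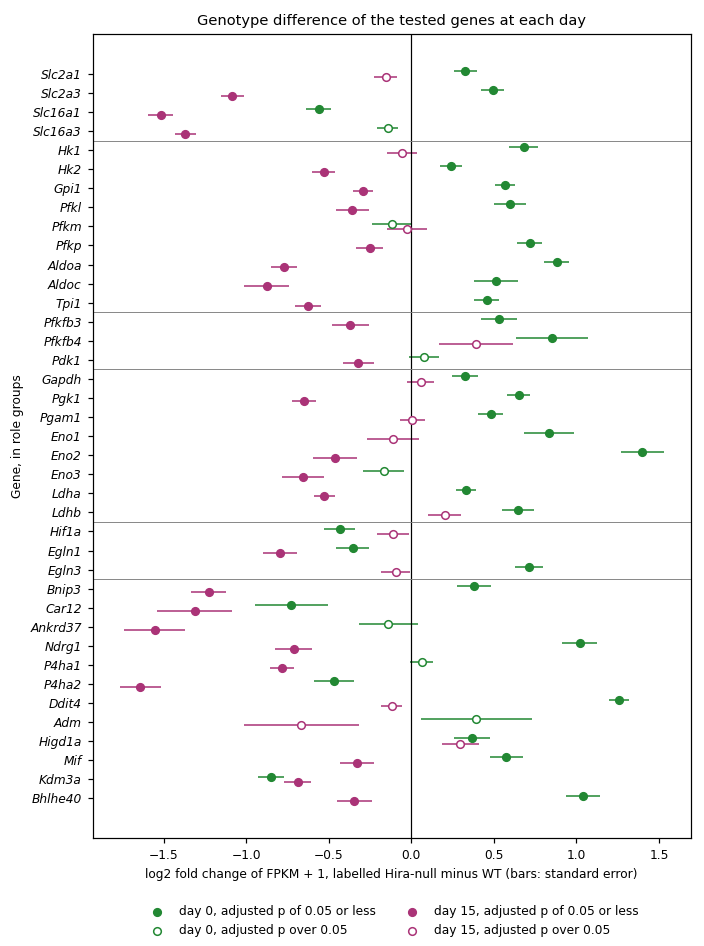
Log2 fold change of each tested member between the libraries labelled Hira-null and WT at day 0 and at day 15, with bars for the standard error and genes grouped by role. Most day 0 points lie to the right of 0 and most day 15 points to the left, with Kdm3a, Slc16a1, P4ha2, Car12 and Egln1 left of 0 on both days.

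The glucose transporters were higher in Hira-null stem cells, and the lactate carriers were not. Slc2a3, the high-affinity glucose transporter GLUT3 (mm9 chr6:122677827-122751658, minus strand), was at 839 and 851 FPKM in WT and 1198 and 1182 in Hira-null at day 0 (log2 fold change 0.49, SE 0.07, adjusted p = 0.000679). By day 15 the order had turned, with 155 and 159 FPKM in WT and 78.3 and 69.0 in the libraries labelled Hira-null (-1.08, SE 0.07, adjusted p = 2.94e-05). The genotypes did not overlap on either day. Slc2a1, the widespread transporter GLUT1, was 1.25 times as high in Hira-null at day 0 (log2 fold change 0.33, adjusted p = 0.00549), but the call was lost without the first Hira-null day 0 library (0.29, adjusted p = 0.064). Its day 15 value was -0.15 (adjusted p = 0.119).

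Slc16a1, the lactate carrier MCT1, was lower in Hira-null at day 0 and in the libraries labelled Hira-null at day 15. It was at 73.0 FPKM in both WT libraries and 48.4 and 49.8 in Hira-null at day 0 (log2 fold change -0.56, SE 0.07, adjusted p = 0.000537). At day 15 the WT libraries held 56.3 and 53.7 FPKM and those labelled Hira-null 17.7 and 19.4 (-1.52, SE 0.08, adjusted p = 1.05e-05). Its upstream region is one of those printed with 4 matches. Slc16a3, the lactate exporter MCT4, was at 159 and 161 FPKM in WT and 146 and 144 in Hira-null at day 0, which did not pass (-0.14, adjusted p = 0.0998). Slc16a3 at day 15 was at 48.2 and 46.7 FPKM in WT and 18.0 and 17.5 in the libraries labelled Hira-null (-1.37, SE 0.06, adjusted p = 7.68e-06). Exons of Slc2a1 and Slc16a3 overlap genes on the other strand, as do those of Hk1, Gpi1, Pfkp, Tpi1, Hif1a, Car9, Ankrd37, Ndrg1 and Bhlhe40. Whether counting used the strand is unknown from the sources read, so reads of these genes and their partners may be mixed.

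Among the 9 genes of upper glycolysis, from hexokinase to triose phosphate isomerase, 8 were higher in Hira-null at day 0 and 7 were lower at day 15, against 20.8% and 18.8% of all tested genes. Hk1, a hexokinase of many tissues, was at 23.1 and 23.9 FPKM in WT and 36.1 and 40.7 in Hira-null at day 0 (log2 fold change 0.68, SE 0.09, adjusted p = 0.000532). At day 15 its levels were 17.1 and 16.4 FPKM in WT and 16.0 and 16.3 in the libraries labelled Hira-null (-0.05, adjusted p = 0.673). Aldoa, the aldolase that cleaves fructose bisphosphate (mm9 chr7:133938748-133944265, minus strand), had the highest FPKM of any member at day 0. It was at 1422 and 1402 FPKM in WT and 2608 and 2589 in Hira-null stem cells (0.88, SE 0.08, adjusted p = 8.46e-05). The WT cultures at day 15 had 358 and 335 FPKM of it and the cultures labelled Hira-null 187 and 219 (-0.77, SE 0.08, adjusted p = 0.000201). Aldoa thus lay on opposite sides of WT at day 0 and day 15 with no overlap. Its rank among members is uncertain, since Gapdh, Ldha and Mif have near-identical copies elsewhere in mm9.

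Phosphofructokinase has liver, platelet and muscle forms. Pfkl, the liver form, was at 166 and 152 FPKM in WT and 241 in both Hira-null libraries at day 0 (log2 fold change 0.60, SE 0.10, adjusted p = 0.00159), then at 55.5 and 50.3 against 37.1 and 45.3 at day 15 (-0.36, SE 0.10, adjusted p = 0.0218). Pfkp, the platelet form, was at 119 and 113 FPKM in WT and 197 and 187 in Hira-null at day 0 (0.72, SE 0.08, adjusted p = 0.00021), then at 25.7 and 26.7 against 20.6 and 23.2 (-0.25, SE 0.08, adjusted p = 0.0345). Neither form overlapped between genotypes. Their day 15 calls were fragile: Pfkl lost its call without either WT library or the first labelled Hira-null (-0.43 to -0.22, adjusted p up to 0.174), and Pfkp without any 1 of 7 libraries, the exception being the second day 15 library labelled Hira-null (adjusted p up to 0.180). Pfkm, the muscle form, did not pass at day 0 (-0.12, adjusted p = 0.462) or day 15 (-0.03, adjusted p = 0.875).

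Tpi1, which interconverts the triose phosphates, was at 454 and 431 FPKM in WT and 608 and 607 in Hira-null at day 0 (log2 fold change 0.46, SE 0.08, adjusted p = 0.00187), and at 163 and 159 against 95.8 and 112 at day 15 (-0.63, SE 0.08, adjusted p = 0.000511). Aldoc, an aldolase of the brain, stood far lower, at 16.6 and 13.4 FPKM in WT and 22.0 and 21.4 in Hira-null at day 0 (0.51, SE 0.13, adjusted p = 0.0134). Its day 15 levels were 5.47 and 5.08 against 2.58 and 2.27 (-0.88, SE 0.13, adjusted p = 0.00136). Tpi1 and Aldoc also changed sides between the days, but the Aldoc call at day 0 was lost without the second WT library or either Hira-null one (0.37 to 0.53, adjusted p up to 0.081). Gpi1, glucose phosphate isomerase, which has no match in its printed upstream region, was 1.49 times as high in Hira-null at day 0 (0.57, adjusted p = 0.000177). WT held 1.23 times as much at day 15 (-0.29, adjusted p = 0.00603, and 0.052 without the first WT library). Hk2, the hexokinase of muscle and tumours, was 0.24 higher at day 0 on the log2 scale (adjusted p = 0.019), a call lost without any 1 of the 4 day 0 libraries (adjusted p up to 0.111), and it was lower at day 15 (-0.53, adjusted p = 0.000546).

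The kinases PFKFB3 and PFKFB4 set the level of a fructose bisphosphate, which activates phosphofructokinase, and PDK1 holds pyruvate dehydrogenase inactive. Pfkfb4 was at 0.687 and 0.528 FPKM in WT and 2.17 and 1.66 in Hira-null at day 0 (log2 fold change 0.85, SE 0.22, adjusted p = 0.0138), and at 3.22 and 1.75 against 3.84 and 3.13 at day 15 (0.39, adjusted p = 0.207). The day 15 libraries overlapped, and at these low levels the fold change understates the ratio of FPKM, 3.15 at day 0. Its day 0 call was lost without the second WT or the first Hira-null library (0.73 to 0.78, adjusted p up to 0.102). Pfkfb3 was higher in Hira-null at day 0 (0.53, adjusted p = 0.00486, and 0.051 without the first Hira-null library). It was lower at day 15 (-0.37, adjusted p = 0.0302), a call lost without either WT library or the first labelled Hira-null (adjusted p up to 0.213). Pdk1 had a value of 0.08 at day 0 (adjusted p = 0.557) and was lower at day 15 (-0.32, adjusted p = 0.0276), which was lost without either WT library or the second labelled Hira-null (adjusted p up to 0.189).

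In lower glycolysis, from the glyceraldehyde phosphate dehydrogenase step to lactate, 7 of 8 genes were higher in Hira-null at day 0 and 4 were lower at day 15, against 20.8% and 18.8% of all tested genes. Pgk1, phosphoglycerate kinase, the first step that yields ATP, was at 119 and 122 FPKM in WT and 181 and 197 in Hira-null stem cells (log2 fold change 0.65, SE 0.07, adjusted p = 0.000235). By day 15 Pgk1 stood at 34.3 and 32.1 against 20.6 and 21.0 (-0.65, SE 0.07, adjusted p = 0.000312). The genotypes were clear of each other on each day, in opposite order. Ldha, the lactate dehydrogenase subunit that favours lactate production, followed with 1.26 times the WT level at day 0 (0.33, adjusted p = 0.00333) while at day 15 WT held 1.44 times the level labelled Hira-null (-0.53, adjusted p = 0.000444). Ldhb, the subunit of heart and brain, was at 77.3 and 76.4 FPKM in WT and 117 and 124 in Hira-null at day 0 (0.64, SE 0.10, adjusted p = 0.00106). Its levels at day 15 overlapped, at 120 and 101 FPKM in WT and 118 and 136 in the libraries labelled Hira-null (0.20, adjusted p = 0.143).

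The enolases convert phosphoglycerate to phosphoenolpyruvate. Eno2, the neuronal enolase (mm9 chr6:124710071-124719691, minus strand), had the largest fold change of any member at day 0, from 1.70 and 1.44 FPKM in WT to 5.52 and 6.02 in Hira-null (log2 fold change 1.40, SE 0.13, adjusted p = 0.000101). At day 15 it was at 9.18 and 9.43 FPKM in WT and 6.26 and 6.69 in the libraries labelled Hira-null (-0.46, SE 0.13, adjusted p = 0.0244), a call lost without any 1 of the 4 day 15 libraries (-0.51 to -0.42, adjusted p up to 0.159). The 12 markers of neurons and neural progenitors moved the other way at day 15. They summed to 214 to 217 FPKM in WT and 573 to 591 in the libraries labelled Hira-null. Of the 12, 11 were called higher, against 18.6% of all tested genes. Eno1, the widespread enolase, was at 13.9 and 10.5 FPKM in WT and 22.8 and 21.9 in Hira-null at day 0 (0.83, SE 0.15, adjusted p = 0.00289), and at 2.21 and 1.97 against 2.02 and 1.72 at day 15 (-0.11, adjusted p = 0.622). Eno3, the muscle enolase, was at 16.4 and 17.9 FPKM in WT and 14.9 and 15.4 in Hira-null at day 0 (-0.17, adjusted p = 0.323), and at 18.5 and 15.8 against 9.38 and 11.7 at day 15 (-0.65, SE 0.13, adjusted p = 0.00449, and 0.066 without the first WT library).

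Gapdh was at 1144 and 1122 FPKM in WT and 1399 and 1443 in Hira-null at day 0 (log2 fold change 0.33, SE 0.08, adjusted p = 0.0103), a call lost without either Hira-null library (0.30 to 0.35, adjusted p up to 0.086). The day 15 levels were 371 and 351 FPKM in WT and 346 and 407 in the libraries labelled Hira-null, which overlapped (0.06, adjusted p = 0.611). The gene is in common use to normalise quantitative PCR. Pgam1, phosphoglycerate mutase, had 1.40 times the WT level at day 0 (0.48, adjusted p = 0.00119) and a value of 0.01 at day 15 (adjusted p = 0.962). Several members have near-identical copies elsewhere in mm9, at 95% identity or more over at least 50% of the coding sequence: 51 for Gapdh, 3 for Mif, 2 each for Pgk1, Pgam1, Eno1, Ldha and Bnip3, and 1 each for Ldhb and Higd1a. Their levels are uncertain, since the sources read do not say how reads shared with such copies were treated.

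**Figure D3:**
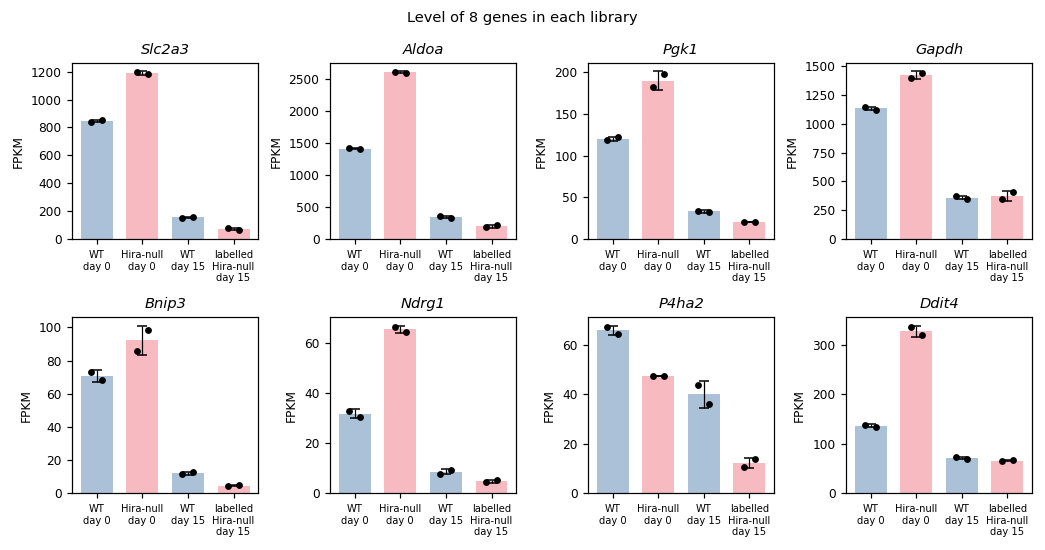
FPKM of 8 members, with a point for each library, a bar from 0 to the mean of each group and an error bar of 1 SD (n = 2). Slc2a3, Aldoa, Pgk1, Bnip3 and Ndrg1 lie higher in Hira-null at day 0 and lower in the libraries labelled Hira-null at day 15, P4ha2 lies lower on both days, and the day 15 points of Gapdh overlap.

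The HIF pathway itself moved in mixed directions. Hif1a, the oxygen-regulated transcription factor, was lower in Hira-null at day 0, at 14.7 and 15.1 FPKM against 19.5 and 21.5 in WT (-0.43 on the log2 scale, SE 0.09, adjusted p = 0.00625), with -0.11 at day 15 (adjusted p = 0.392). Its mRNA does not measure the protein, which oxygen controls. Egln1, the main prolyl hydroxylase, was at 53.5 and 48.8 FPKM in WT and 39.2 and 40.2 in Hira-null at day 0 (-0.36, SE 0.10, adjusted p = 0.0204), a call lost without the first WT library or either Hira-null one (adjusted p up to 0.114). Egln1 at day 15 was at 31.9 and 27.1 against 15.6 and 17.5 FPKM (-0.79, SE 0.10, adjusted p = 0.000582). Egln3, a hydroxylase induced by hypoxia, went the other way in stem cells, at 33.1 and 32.7 FPKM in WT and 55.2 and 53.9 in Hira-null (0.71, SE 0.08, adjusted p = 0.000321). It did not pass at day 15, with 9.24 and 9.09 against 8.18 and 8.87 (-0.09, adjusted p = 0.423). Both Egln genes were without overlap between genotypes at day 0, in opposite order.

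Of the other hypoxia-induced genes, 6 of 12 tested were higher and 3 lower in Hira-null at day 0, and 9 were lower at day 15, against 20.8%, 19.4% and 18.8% of all tested genes. Ddit4 encodes REDD1, an inhibitor of mTORC1, at mm9 chr10:59412423-59414518 on the minus strand. It was at 138 and 134 FPKM in WT and 336 and 319 in Hira-null stem cells (log2 fold change 1.26, SE 0.06, adjusted p = 6.27e-06), and at 73.0 and 70.3 against 65.5 and 66.4 at day 15 (-0.12, adjusted p = 0.174). Bhlhe40, a repressor of the basic helix-loop-helix family, was at 35.8 and 43.7 FPKM in WT and 83.7 and 81.1 in Hira-null at day 0 (1.04, SE 0.10, adjusted p = 0.000141). By day 15 Bhlhe40 stood at 20.2 and 20.0 against 16.4 and 14.8 (-0.34, SE 0.11, adjusted p = 0.0319), which was lost without either WT library or the second labelled Hira-null (adjusted p up to 0.178). Ndrg1, a stress response gene of differentiating cells, was at 33.1 and 30.6 FPKM in WT and 66.6 and 64.4 in Hira-null at day 0 (1.02, SE 0.11, adjusted p = 0.000201), and at 7.86 and 9.27 against 4.47 and 5.20 at day 15 (-0.71, SE 0.11, adjusted p = 0.0015). Ddit4, Bhlhe40 and Ndrg1 were thus at least 2-fold higher in Hira-null stem cells, and none of the 3 was higher at day 15.

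Bnip3, a mitochondrial protein of mitophagy and cell death, was at 73.0 and 68.1 FPKM in WT and 85.8 and 98.5 in Hira-null at day 0 (log2 fold change 0.38, SE 0.10, adjusted p = 0.0174), a call lost without the second library of either genotype (adjusted p up to 0.156). At day 15 it was at 11.5 and 12.6 FPKM in WT and 4.28 and 4.91 in the libraries labelled Hira-null (-1.23, SE 0.11, adjusted p = 9.17e-05). Ankrd37, an ankyrin repeat gene, overlapped at day 0, at 17.4 and 16.5 FPKM in WT and 17.7 and 13.2 in Hira-null (-0.14, adjusted p = 0.579), and was at 4.46 and 4.53 against 0.621 and 1.16 at day 15 (-1.55, SE 0.18, adjusted p = 0.000359). The level in WT at day 15 was 2.63 times that labelled Hira-null for Bnip3 and 5.04 times for Ankrd37. Both have at least 4 matches in the upstream regions printed. So has Slc16a1, which also lay 2-fold or more below WT at day 15, and Ldha, which did not reach 2-fold. Of the other members called lower by that size on the log2(FPKM + 1) scale, Car12 had 0 matches, Slc16a3 had 2 and P4ha2 had 3. Slc2a3 had no entry. A link between matches and the day 15 differences was not tested.

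The collagen prolyl hydroxylase subunits were lower in the libraries labelled Hira-null at day 15. P4ha1 was at 57.9 and 56.2 FPKM in WT and 59.7 and 59.6 in Hira-null at day 0 (log2 fold change 0.06, adjusted p = 0.52), and at 47.8 and 44.3 against 26.7 and 25.9 at day 15 (-0.79, SE 0.07, adjusted p = 0.000127). P4ha2 was already lower at day 0, at 67.1 and 64.3 FPKM in WT and 47.3 and 47.2 in Hira-null (-0.47, SE 0.12, adjusted p = 0.0144), a call lost without the first WT library or either Hira-null one (adjusted p up to 0.081). On the fitted log2(FPKM + 1) scale, P4ha2 (mm9 chr11:53913597-53945167, plus strand) had the largest negative fold change of any tested member at day 15 (-1.64, SE 0.12, adjusted p = 6.02e-05). Its levels were 43.8 and 36.2 FPKM in WT and 10.7 and 13.7 in the libraries labelled Hira-null. By ratio of FPKM, the differences of Car12 and Ankrd37 were larger. Kdm3a, an oxygen-dependent histone H3 lysine demethylase, was lower by similar amounts on both days, at 38.4 and 36.4 FPKM in WT and 20.0 and 20.7 in Hira-null at day 0 (-0.85, SE 0.08, adjusted p = 0.000107). The day 15 values of Kdm3a were 27.0 and 28.0 against 16.5 and 16.9 (-0.69, SE 0.08, adjusted p = 0.000375).

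Carbonic anhydrases balance pH outside glycolytic cells. Car12 was at 7.20 and 6.21 FPKM in WT and 2.66 and 4.90 in Hira-null at day 0 (log2 fold change -0.73, SE 0.22, adjusted p = 0.0294), and at 2.26 and 1.88 against 0.242 and 0.226 at day 15 (-1.31, SE 0.23, adjusted p = 0.00255). WT held 8.85 times the FPKM of the libraries labelled Hira-null at day 15, the largest ratio of any member. Its day 0 call was lost without any 1 of 5 libraries, the WT ones of both days and the first Hira-null day 0 one (-0.82 to -0.38, adjusted p up to 0.203), and its day 15 call without the first WT day 15 library (adjusted p = 0.054). Car9, the member not tested, rested on 8, 17, 11 and 10 fragments in the 4 day 0 libraries and 1, 4, 1 and 1 at day 15, so a genotype difference was not detectable at this depth. Mif, a cytokine, was higher at day 0 (0.58, adjusted p = 0.00227) and lower at day 15 (-0.33, adjusted p = 0.0358), the latter call lost without any 1 of the Hira-null day 0 libraries, the WT day 15 libraries or the second labelled Hira-null at day 15 (adjusted p up to 0.235). Higd1a, a mitochondrial protein, was higher at day 0 (0.37, adjusted p = 0.0263, up to 0.144 without the first WT or either Hira-null library). Adm, adrenomedullin, passed on neither day (0.39, adjusted p = 0.394, and -0.67, adjusted p = 0.165).

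Setting the days side by side, 16 members were higher in Hira-null at day 0 and lower in the libraries labelled Hira-null at day 15, a combination found in 3.06% of tested genes. They were Slc2a3, Hk2, Gpi1, Pfkl, Pfkp, Aldoa, Aldoc, Tpi1, Pfkfb3, Pgk1, Eno2, Ldha, Bnip3, Ndrg1, Mif and Bhlhe40. Leaving out 1 library could remove the day 0 call of Hk2, Aldoc and Bnip3. It could also remove the day 15 call of Gpi1, Pfkl, Pfkp, Eno2, Mif and Bhlhe40, and either call of Pfkfb3. Only Slc2a3, Aldoa, Tpi1, Pgk1, Ldha and Ndrg1 kept both calls whichever library was left out. Another 10 were higher at day 0 and did not pass at day 15, and 5 did not pass at day 0 and were lower at day 15. The 5 members lower on both days (Slc16a1, Egln1, Car12, P4ha2 and Kdm3a) compare with 6.51% of tested genes. Hif1a was lower at day 0 alone, and Pfkm and Adm passed at neither day. A difference between the genotype effects at day 0 and day 15, tested as an interaction, was called in 30 members, all towards lower values at day 15, against 17.7% of tested genes in that direction and 17.5% in the other. None passed upwards in limma, with 1 (Hif1a) at an unadjusted p below 0.05.

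On the log2(FPKM + 1) scale the largest interaction was that of Eno2 (-1.86, SE 0.19, adjusted p = 0.000295). Ndrg1 (-1.73, SE 0.16, adjusted p = 0.000195) and Aldoa (-1.65, SE 0.11, adjusted p = 7.74e-05) came next. Bnip3 and Slc2a3 followed at -1.61 and -1.58. Kdm3a, lower on both days, had an interaction of 0.16 (adjusted p = 0.304), and Car12 of -0.59 (adjusted p = 0.186). The interaction was 2-fold or more on the log2(FPKM + 1) scale in 13 members, all negative. By that size, 8.36% of tested genes were called in that direction and 5.44% in the other. Over the 39 tested members the median interaction was -0.90, against 0.02 over all tested genes. The calls of Egln1, Ldhb and Pdk1 were lost without any 1 of 5, 6 and 6 libraries (adjusted p up to 0.162, 0.135 and 0.159), the first WT day 15 library and both Hira-null day 0 libraries among them in each, and that of Eno1 without the first WT day 15 library (adjusted p = 0.067).

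Most members fell from day 0 to day 15 in each genotype. In WT, 32 fell and 5 rose, against 33.4% and 36.1% of tested genes, and in cells labelled Hira-null 34 fell and 3 rose, against 36.4% and 37.5%. The median log2 fold change of the members was -1.33 in WT and -2.08 in cells labelled Hira-null, and 0.03 and 0.01 over all tested genes. By 2-fold or more on the log2(FPKM + 1) scale, 23 fell and 3 rose in WT, against 12.4% and 17.9% of tested genes. In cells labelled Hira-null 32 fell and 1 rose by that size, against 17.9% and 20.5%. A total of 32 members fell in both, which 26.5% of tested genes did. Summed over the 40 members, FPKM was 8588 and 8322 in WT and 12085 and 12061 in Hira-null at day 0, and 2887 and 2734 against 2082 and 2175 at day 15. The genotypes did not overlap in this sum on either day, and their order was reversed. With library medians set equal, the medians of the members were -1.57 and -2.28, and the shares of all genes called higher and lower became 27.8% and 42.5% in WT and 31.6% and 43.4% in cells labelled Hira-null.

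On the fitted log2(FPKM + 1) scale Bnip3 and Slc2a3 fell furthest in both genotypes. In cells labelled Hira-null the mean FPKM of Bnip3 was 20.1 times higher at day 0 than in the libraries labelled Hira-null at day 15 (log2 fold change -4.06, SE 0.10, adjusted p = 1.33e-08), and in WT 5.84 times higher (-2.45, SE 0.10, adjusted p = 2.29e-07). For Slc2a3 the ratios were 16.2 and 5.39, and for Aldoa 12.8 and 4.08. Ankrd37, Ndrg1 and Car12 fell by ratios of 17.3, 13.6 and 16.2 in cells labelled Hira-null and of 3.77, 3.72 and 3.24 in WT. Gapdh fell by a ratio of 3.14 in WT and 3.77 in cells labelled Hira-null, and its interaction did not pass (-0.27, adjusted p = 0.0952). The genes of smallest fall included Kdm3a, at 1.36 in WT and 1.22 in cells labelled Hira-null (the latter call lost without the second Hira-null day 0 library, adjusted p = 0.074), and P4ha1 in WT, at 1.24.

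A few members rose. Hif1a rose from 19.5 and 21.5 FPKM to 46.9 and 54.5 in WT (1.26 on the log2 scale, adjusted p = 4.44e-06) and from 14.7 and 15.1 to 46.8 and 46.6 in cells labelled Hira-null (1.59, adjusted p = 8.26e-07). Pfkm rose in WT (0.42, adjusted p = 0.0108, up to 0.088 without the second day 0 or the first day 15 library) and in cells labelled Hira-null (0.51, adjusted p = 0.00359). Pfkfb4 rose in WT (1.09, adjusted p = 0.00207) and in cells labelled Hira-null (0.62, adjusted p = 0.0301, up to 0.156 without the second Hira-null day 0 library or the first at day 15). Eno2 rose in WT (2.01, adjusted p = 2.09e-06), while its value in cells labelled Hira-null was 0.14 (adjusted p = 0.346). Ldhb rose in WT (0.51, adjusted p = 0.00137), with 0.07 in cells labelled Hira-null (adjusted p = 0.513). The rest that did not pass were Eno3 in WT (adjusted p = 0.98) and Adm in WT (-0.09, adjusted p = 0.828). Adm fell in cells labelled Hira-null (-1.15, adjusted p = 0.0134), a call lost without the first Hira-null library of either day (adjusted p up to 0.110).

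**Figure D4:**
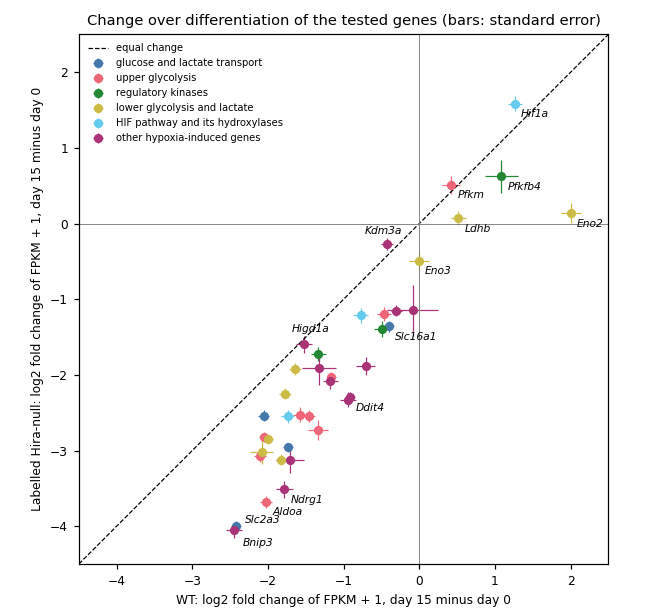
Log2 fold change from day 0 to day 15 of each tested member in WT (horizontal axis) and in the libraries labelled Hira-null (vertical axis), coloured by role, with standard errors as bars and a dashed line of equal change. Most points lie below the line and in the lower left part, where Bnip3 has -2.45 in WT and -4.06 in cells labelled Hira-null.

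Because FPKM allows for length, the forms of an enzyme can be given as shares of their summed FPKM. Hk1 held 10.9% and 11.2% of the hexokinase sum in WT stem cells and 13.9% and 15.4% in Hira-null, with Hk2 holding the rest, and 27.6% and 26.9% against 35.3% and 33.5% at day 15. Its share was higher, without overlap, in Hira-null at day 0 and in the libraries labelled Hira-null at day 15. Pfkm went from 6.42% and 5.88% of phosphofructokinase in WT at day 0 to 23.7% and 23.6% at day 15, and from 3.40% and 3.99% in Hira-null to 28.0% and 27.4% in the libraries labelled Hira-null. Ldhb went from 6.51% and 6.86% of the lactate dehydrogenase sum to 30.8% and 27.5% in WT, and from 8.04% and 8.36% in Hira-null to 39.7% and 41.4% in the libraries labelled Hira-null. Hk1, Pfkm and Ldhb each held a larger share at day 15 than at day 0 in all libraries. These shares are descriptions of 2 libraries a group, with no test. Ldha and Ldhb have near-identical copies elsewhere in mm9, so the lactate dehydrogenase shares are as uncertain as their levels.

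Eno2 held 5.30% and 4.83% of the enolase sum in WT stem cells and 12.8% and 13.9% in Hira-null, and 30.8% and 34.7% against 35.4% and 33.2% at day 15, where the genotypes overlapped. Slc2a1 held 41.9% and 40.9% of the Slc2a1 and Slc2a3 sum in WT and 39.0% and 38.2% in Hira-null at day 0, and 49.3% and 46.0% against 61.5% and 65.6% at day 15. GLUT1 thus made up the larger share of this pair in the libraries labelled Hira-null at day 15 alone. Egln3 held 38.2% and 40.2% of the Egln1 and Egln3 sum in WT stem cells and 58.5% and 57.3% in Hira-null. At day 15 Egln3 held 22.5% and 25.1% against 34.3% and 33.6%. Aldoa held between 98.5% and 99.2% of the aldolase sum in every library. The enolase shares are uncertain, since Eno1 has 2 near-identical copies elsewhere and rested on 157 to 341 fragments at day 0.

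**Figure D5:**
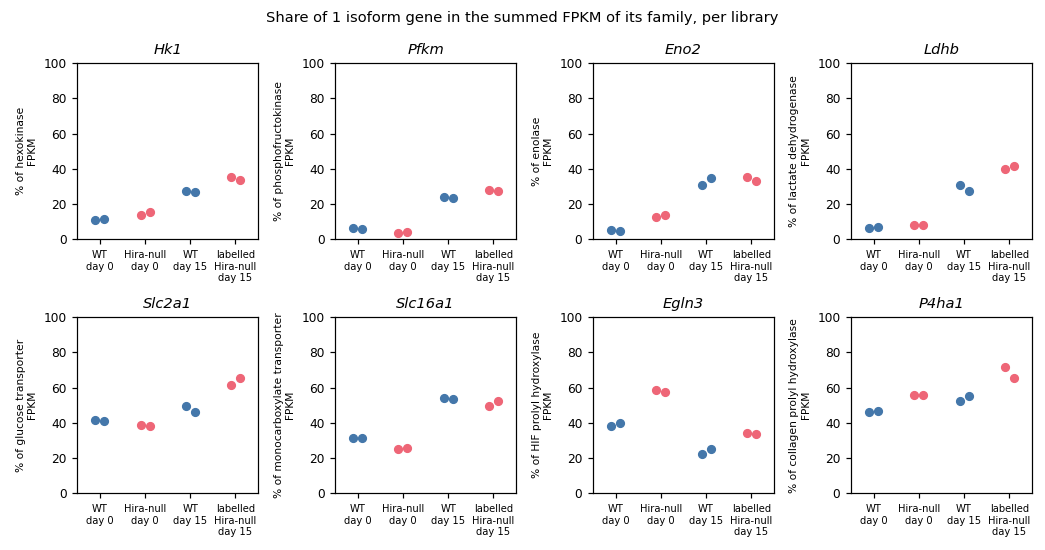
Share of the summed FPKM of a family held by 1 of its genes, in percent, for 8 families, with a point for each library in the 4 groups of genotype and day. Ldhb lies between 6.51% and 8.36% of the lactate dehydrogenase sum at day 0 and between 27.5% and 41.4% at day 15.

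Other genes of these pathways, not among the 40, moved in both directions. Of 37 tested other genes of glycolysis, pyruvate and the pentose phosphate pathway, 13 were higher and 5 lower in Hira-null at day 0, and 9 were higher and 7 lower at day 15, where 20.8%, 19.4%, 18.6% and 18.8% of all tested genes were, with median log2 fold changes of 0.23 and -0.05. Of 44 tested other HIF pathway and hypoxia-induced genes, 15 were higher and 9 lower at day 0, and 9 higher and 15 lower at day 15 (medians 0.15 and -0.10), against the same shares of all tested genes. Pkm, pyruvate kinase, the step between enolase and lactate dehydrogenase, was at 1458 and 1420 FPKM in WT and 1879 and 1856 in Hira-null at day 0 (0.38, SE 0.09, adjusted p = 0.00946, up to 0.0719 without either Hira-null library). In the day 15 cultures Pkm stood at 395 and 394 against 383 and 474 (0.11, adjusted p = 0.372), and without the first library labelled Hira-null it passed as higher (0.26, adjusted p = 0.0126). Slc2a4, the insulin-responsive transporter GLUT4, was at 0.289 and 0.419 FPKM in WT and 3.56 and 4.40 in Hira-null stem cells (1.87, SE 0.15, adjusted p = 5.52e-05). Hkdc1, a hexokinase domain gene, was lower in Hira-null at day 0 (-2.93, adjusted p = 1.73e-05) and in the libraries labelled Hira-null at day 15 (-2.12, adjusted p = 9.24e-05).

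Marker genes of the cells in these cultures also differed between the groups. Of all tested genes, 20.8% were called higher and 19.4% lower at day 0, and 18.6% and 18.8% at day 15. Pluripotency markers, 12 genes, summed to 3735 to 3947 FPKM in WT and 5483 to 5488 in Hira-null at day 0, with 7 higher and 1 lower, and to 569 to 599 against 803 to 805 at day 15, again with 7 higher and 3 lower. Markers of dividing cells, 10 genes, summed to 1010 to 1013 FPKM against 1012 to 1058 at day 0, and to 520 to 532 against 391 to 398 at day 15, with 6 lower and 0 higher. At day 15 visceral endoderm markers summed to 148 to 155 FPKM in WT and 30.5 to 31.5 in the libraries labelled Hira-null, endothelial markers to 55.9 to 57.7 against 22.6 to 25.1, and leukocyte markers to 91.7 to 100.1 against 37.9 to 40.3. Erythroid markers summed to 33.1 to 40.4 against 1.86 to 2.02, with Hba-a1, Hba-a2 and Hbb-b1 listed at 0 in every library. At day 15, 7 of 9 tested visceral endoderm markers were called lower and 1 higher. Called lower, with 0 higher, were 7 of 10 endothelial, 7 of 9 tested leukocyte and 2 of 4 tested erythroid markers. Of 7 tested skeletal muscle markers, 5 were lower and 1 higher. The part of these cell types in the day 15 differences of the members was not tested. Immediate early stress genes summed to 634 to 672 FPKM in WT and 495 to 546 in the libraries labelled Hira-null at day 15, and to 218 to 221 against 261 to 270 at day 0.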

How the data were processed

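Poly(A) RNA of 8 libraries, 4 groups of 2, was analysed. The authors used a stranded, paired-end kit, aligned reads to mm9 with Bowtie 0.12.2, used DESeq2 1.6.3 for their comparisons and deposited FPKM for 24421 genes. The counting tool and its use of strand are not given in the sources used here. The authors' own fold changes and p-values, in separate tables, were not used.

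FPKM values were whole multiples of a step per library and gene (100% of 131698 positive values within 0.1 of a fragment), which gave the fragments as the smallest whole numbers that fit. Depth therefore covers counting error only. Replicates differed by more than counting noise (chi-square per degree of freedom 2.89 to 5.93). No count model was used as the main test.

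A gene was tested if at least 2 of the 8 libraries reached FPKM 1, which 14337 did. Log2(FPKM + 1) was modelled in limma 3.58.1 under R 4.3.3, with a mean for each of the 4 groups and weights of 1.03 for day 0 and 0.968 for day 15. Moderated two-sided tests used a trended prior (4.70 prior and 4 residual degrees of freedom), and p-values were adjusted by Benjamini-Hochberg over every tested gene. A fold change on this scale understates the change of genes at low FPKM. Of 39 tested members, 36 were at FPKM 1 or more in all libraries.

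The members and gene lists were chosen with earlier results of these data known. Values per library are given for members past the test with a log2 fold change of 0.58 or more in size in a genotype comparison and no overlap of libraries, and always for Gapdh. Of other pathway genes, the 3 with the largest fold changes in each direction and comparison could be named. Copies were found with minimap2 2.31, and positions come from the NCBIM37 annotation. Alternatives were another pseudocount, no filter, equal medians, equal weights, a replicate block, the 4 libraries of a comparison alone, and leaving out each library.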

Additional observations from a re-analysis of the deposited data

Results flagged for a closer look

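The effect of genotype differed between day 0 and day 15 for 30 of 39 tested members, by the interaction test in limma at an adjusted p of 0.05 or less, and in each the difference moved towards lower values in the libraries labelled Hira-null at day 15. Values are the log2 fold change between the genotypes at day 15 minus that at day 0.

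Among transporters it was -1.58 for Slc2a3, -1.23 for Slc16a3, -0.96 for Slc16a1 and -0.48 for Slc2a1. In upper glycolysis it was -1.65 for Aldoa, -1.39 for Aldoc, -1.08 for Tpi1, -0.97 for Pfkp, -0.95 for Pfkl, -0.86 for Gpi1, -0.77 for Hk2 and -0.74 for Hk1. The kinases Pfkfb3 and Pdk1 had -0.90 and -0.40. In lower glycolysis it was -1.86 for Eno2, -1.30 for Pgk1, -0.94 for Eno1, -0.86 for Ldha, -0.47 for Pgam1 and -0.44 for Ldhb.

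Of the prolyl hydroxylases, Egln3 had -0.81 and Egln1 -0.44. In the other hypoxia-induced genes it was -1.73 for Ndrg1, -1.61 for Bnip3, -1.42 for Ankrd37, -1.38 for Ddit4, -1.38 for Bhlhe40, -1.17 for P4ha2, -0.90 for Mif and -0.85 for P4ha1. The part of the marker genes that differed between the day 15 cultures was not tested.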

How the results depend on the processing

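No value of a member or of Hira changed direction with its call under any alternative run. Over 1248 values of single genes under other settings, 1210 stayed on their side of the threshold, 36 were lost and 2 gained, and over 1560 values with a library left out the numbers were 1471, 85 and 4. Of 162 called results, 15 were lost at least once under other settings and 29 with a library left out.

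With 1 library left out, members higher in Hira-null at day 0 numbered 19 to 26 and members lower 3 to 6, the lowest without the first WT or the first Hira-null day 0 library. Members lower at day 15 numbered 16 to 25, with 16 without the first WT day 15 library, and members with a lower interaction 26 to 31. The Hira value at day 15 ran from 0.086 to 0.32, and without the first library labelled Hira-null it was 0.32 with an adjusted p of 0.0497. The causes were not tested. Other settings gave 24 to 26 members higher at day 0, 5 to 7 lower, 20 to 26 lower at day 15 and 27 to 31 with a lower interaction.

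Replicate numbers are shared between groups. Deviations from group means correlated at 0.03 at day 0 and -0.10 at day 15 between same-numbered libraries. A correlation over all tested genes cannot decide whether same-numbered libraries shared an experiment. The main fit held no replicate block. With a replicate block over all libraries, 26 members were higher and 6 lower at day 0, 21 were lower at day 15 and 28 had a lower interaction. With the block within a day the last 2 counts were 20 and 27. Between the days, library medians moved up by 0.24 in WT and 0.20 in Hira-null on the log2 scale. Depth limits members on few fragments, among them Car9 and, at day 15, Car12 and Ankrd37. In the WT day 0 libraries Pfkfb4 rested on 17 and 15 fragments and Eno2 on 35 and 34. Eno1 at day 15 rested on 37 and 41 fragments in WT and 32 and 29 in the libraries labelled Hira-null.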

Other observations

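Other pathway genes with large differences between the genotypes were not of a single pattern. Hmox1, heme oxygenase, was at 106 and 91.4 FPKM in WT and 46.6 and 47.8 in Hira-null at day 0 (log2 fold change -1.04, SE 0.08, adjusted p = 5.17e-05 in limma), and at 83.9 and 78.9 in WT against 35.1 and 34.5 in the libraries labelled Hira-null at day 15 (-1.20, SE 0.08, adjusted p = 4.75e-05). Gpd2, the mitochondrial glycerol phosphate dehydrogenase, was lower in Hira-null at day 0 (-1.03, adjusted p = 0.000144). Mpc1, a subunit of the mitochondrial pyruvate carrier, was at 8.54 and 4.31 FPKM in WT and 20.2 and 15.9 in Hira-null at day 0 (1.41, SE 0.25, adjusted p = 0.00243), and Ppp1r3c, a glycogen-targeting phosphatase subunit, was also higher (1.35, adjusted p = 0.000211).

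At day 15, Bpgm, which makes bisphosphoglycerate, was at 7.34 and 10.6 FPKM in WT and 27.9 and 26.4 in the libraries labelled Hira-null (1.51, SE 0.28, adjusted p = 0.00314, and 0.0728 without the first WT library). Cxcr4, a chemokine receptor, and Arnt2, a partner of HIF proteins in neural tissue, were higher too (1.06, adjusted p = 0.0108, up to 0.145 without either WT library, and 0.99, adjusted p = 0.00207). Hif3a was at 9.39 and 9.63 FPKM in WT and 2.13 and 2.11 in the libraries labelled Hira-null (-1.75, SE 0.15, adjusted p = 8.06e-05), although at day 0 it was higher in Hira-null (0.49, adjusted p = 0.0226, up to 0.0972 without the first WT or either Hira-null library). Its interaction was -2.24 (adjusted p = 0.000195). Pygl, the liver glycogen phosphorylase, was higher in Hira-null at day 0 (0.80, adjusted p = 0.00309) and lower in the libraries labelled Hira-null at day 15 (-1.35, adjusted p = 0.000309), with an interaction of -2.16 (adjusted p = 0.000292). Hif3a and Pygl thus had the order of the 16 members that were higher at day 0 and lower at day 15.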
